A study of Mus musculus with 6 samples.

Results

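Autophagy is the route by which a cell wraps part of its own contents in a membrane and delivers it to the lysosome, and mitophagy is its use on mitochondria. The transcripts of 36 genes of this machinery were followed in cells sorted from the bone marrow of mice of different ages. They were chosen as named genes, from the kinases that start the process to the lysosomal membrane. The array had at least 1 probe for all 36, by RefSeq accession, and they make up 36 of the 37163 gene names on it. Each gene is given by its probe with the highest mean signal over all arrays. The old group was 3 samples from C57BL/6 mice aged 24 months, and the young group was 3 samples from C57BL/6 mice aged 3 months. The labels call the cells mesenchymal stem cells of the marrow, and the design text says that marrow cells were labelled and sorted but not by which markers. Total RNA of each sample was read on 1 array in 1 colour. The labels do not state whether replicates are separate animals. The p-values therefore measure the spread between these samples, some of which may be technical.

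In outline, the Ulk kinase complex starts an autophagosome, a lipid kinase complex around Pik3c3 marks the membrane, and Atg9a vesicles and Atg2 lipid transfer proteins supply it. Enzymes that work like those of the ubiquitin system then attach proteins of the Atg8 family, LC3 and GABARAP, to the growing membrane, where cargo receptors bind them, and the closed vesicle fuses with a lysosome. In bone marrow, autophagy is known for clearing mitochondria from maturing red cells, in which the receptor Bnip3l acts, and deletion of Atg7 in mice disturbs blood stem cells.

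None of the autophagy and mitophagy genes passed the test between old and young cells, and their differences were small. Of the 36 members 35 were tested, and all 35 were well above background on all 6 arrays. By limma with Benjamini-Hochberg adjustment over all 23266 genes tested, 0 members were higher and 0 were lower in old cells at an adjusted p under 0.05. In the same fit 8.01% of all genes passed, as did 8.36% of the genes with a symbol and 8.25% of the genes whose mean signal lay within the range of the members. The members' adjusted p ran from 0.122 for Atg9a to 0.986 for Atg2b. At an unadjusted p under 0.05 there were 6 members, against 27.8% of all genes, and these were Atg9a, Atg7, Atg3, Atg10, Atg4d and Map1lc3b. Differences are given throughout as old minus young on the log2 scale, ± SE, with n = 3 and 3.

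The differences and their intervals were those of the 1 probe used for each gene. The 35 fitted differences lay between -0.35 for Atg9a and 0.23 for Atg4d, which are 0.785-fold and 1.18-fold. Their 95% intervals, gene by gene and not adjusted for the number of genes, reached from -0.63 (Atg9a) to 0.46 (Atg4d), or from 0.644-fold to 1.37-fold. All 35 intervals lay within 1 log2 unit of 0 and 30 lay within 0.5. Further probes of Rb1cc1 (0.56), Atg12 (0.50), Lamp2 (0.38), Atg10 (0.24) and Wipi2 (0.16) lay above the interval of the probe used. The upper end of that interval was 0.20, 0.41, 0.18, -0.04 and 0.15 for these genes. The median SE of the members was 0.09, against 0.13 over all genes tested, and the members' probes were brighter, with a median normalized log2 signal of 1.64 against -0.09. The median size of the difference, without its sign, was 0.13 for the members and 0.19 over all genes.

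More members were lower than higher in old cells, each by a little. The difference was negative in 28 and positive in 7 of the 35 tested members (80% negative), whereas 39.8% of all genes tested were negative. The median difference was -0.11 for the members, 0.07 for all genes tested and 0.03 for the 13548 of them with a symbol. All members have a symbol, whereas the shares of all genes also count probes without one. The members' median stayed below 0 under each of the 16 alternatives tried. Without young replicate 3 the counts were 23 negative and 12 positive, and without old replicate 2 the median was -0.07. The groups did not overlap in 13 members. Old was lower in 10 of them and higher in 3 (Atg14, Atg5 and Atg4d). Over all genes the groups did not overlap in 36%, with old lower in 13.1% and old higher in 22.9%. These counts and medians describe the list and carry no test. The plot of differences by member shows each interval.

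**Figure D1:**
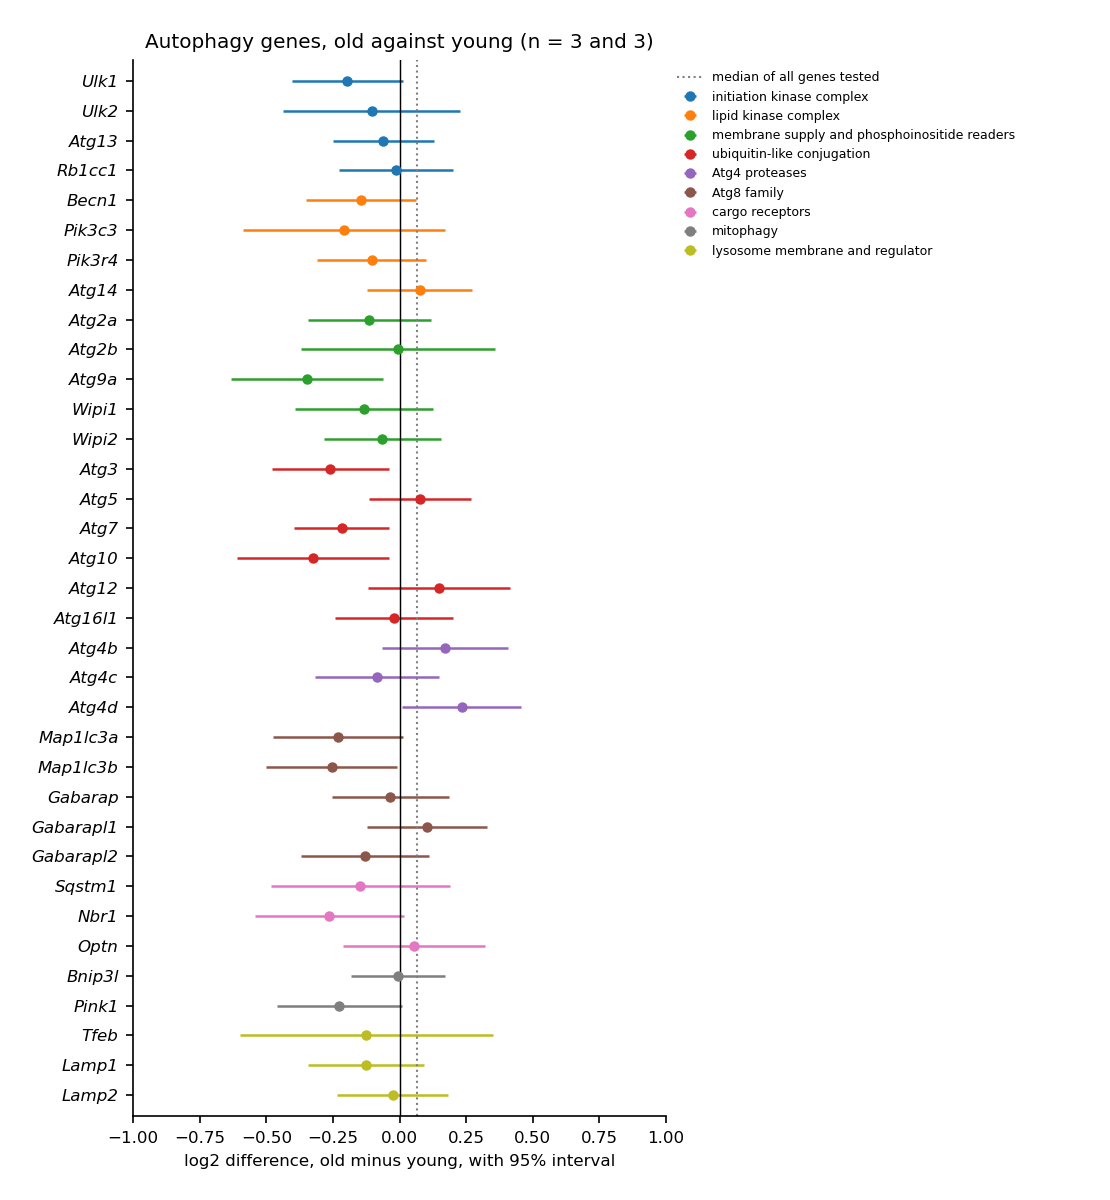
Difference between old and young cells for each tested autophagy or mitophagy gene (log2, old minus young; points are fitted differences and bars 95% intervals, n = 3 and 3; colours mark the role). The points lie between -0.35 and 0.23, 28 of 35 to the left of 0, and 29 of the bars cross 0.

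Among the kinases that start autophagy, Ulk1 (NM_009469), the main initiating kinase, had normalized log2 signals, relative to the 75th percentile of each array, of 3.96, 3.82 and 3.99 in old replicates 1 to 3 and 4.14, 4.07 and 4.15 in young replicates 1 to 3. All 3 old arrays lay below all 3 young arrays. The difference was -0.20 ± 0.09 (95% interval -0.41 to 0.01, limma adjusted p = 0.201). Ulk2 (NM_013881), its close relative, had 0.08, -0.03 and 0.44 on the old arrays and 0.24, 0.29 and 0.27 on the young arrays. Here old replicate 3 was the highest of the 6 arrays and old replicate 2 the lowest, so the old values enclosed the young ones, with a difference of -0.11 ± 0.14 (interval -0.44 to 0.23). Their partners Atg13 and Rb1cc1 (FIP200, the scaffold of the complex) differed by -0.06 and -0.01.

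In the lipid kinase complex, which makes the phosphoinositide that marks the forming membrane, the catalytic subunit Pik3c3 (NM_181414) had 0.78, 0.60 and 0.65 in old and 0.56, 1.03 and 1.07 in young replicates 1 to 3. Young replicate 1 was the lowest of all 6 arrays and the other two young arrays were the highest, so the groups overlapped. The difference was -0.21 ± 0.16 (interval -0.59 to 0.17, limma adjusted p = 0.428). Of its partners, Becn1 differed by -0.14, the regulatory kinase Pik3r4 by -0.10 and Atg14, which directs the complex to autophagy, by 0.07, all with intervals that include 0.

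Atg9a (NM_001003917), a lipid scramblase carried on the vesicles that seed the membrane, had the largest difference of any member. Its normalized log2 signal was 0.77, 0.90 and 0.65 in old cells and 0.96, 1.28 and 1.12 in young cells. The highest old array lay 0.07 below the lowest young array, and young replicate 2 was the highest of all. The difference was -0.35 ± 0.12 (interval -0.63 to -0.06), and the adjusted p of 0.122 (limma) was the smallest among the members. The lipid transfer proteins Atg2a and Atg2b differed by -0.11 and -0.01, and Wipi1 and Wipi2, which bind the phosphoinositide mark, by -0.13 and -0.06. All 5 differences of this group were negative with the probes used, although the further Wipi2 probe and Atg2b with normexp background correction (0.01) were positive.

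The conjugation enzymes held 3 of the 6 members with an unadjusted p under 0.05. Atg7 (NM_028835), the activating enzyme for both conjugation reactions, had 1.52, 1.58 and 1.56 on the old arrays, against 1.75, 1.79 and 1.78 on the young arrays. With this probe, replicates were close within each age, and the groups lay apart by more than their own spread. The difference was -0.22 ± 0.07 (interval -0.40 to -0.04, limma adjusted p = 0.124). On the further Atg7 probe the ages overlapped, with young replicate 1 the lowest array, and the difference was -0.17 ± 0.15. Atg3 (NM_026402), which passes LC3 and GABARAP proteins on to the lipid, had 1.78, 1.73 and 1.66 in old cells and 1.88, 1.99 and 2.08 in young cells, again without overlap. It differed by -0.26 ± 0.09 (interval -0.48 to -0.04, limma adjusted p = 0.130).

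Atg10 (NM_025770), which joins Atg12 to Atg5, had -1.60, -1.35 and -1.64 in old and -1.25, -1.06 and -1.30 in young replicates, a difference of -0.32 ± 0.12 (interval -0.61 to -0.04, limma adjusted p = 0.142). The lower value in old cells rests on the probe with the higher mean, as the other Atg10 probe differed in the opposite direction (given with the further probes). The genes of the joined proteins, Atg5 and Atg12, had positive differences with intervals that include 0. Atg5 differed by 0.08, Atg12 by 0.15 and Atg16l1, the third part of their complex, by -0.02, with limma adjusted p of 0.567, 0.425 and 0.906.

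The Atg4 proteases, which trim Atg8 proteins before they are attached and cut them loose again, included the member with the highest difference. Atg4d (NM_153583) had 4.72, 4.63 and 4.73 in old cells and 4.54, 4.33 and 4.51 in young cells. Every old array was above every young array. The difference of 0.23 ± 0.09 (interval 0.01 to 0.46) had an adjusted p of 0.165 by limma. Atg4b (NM_174874), the protease with the broadest activity on LC3 and GABARAP proteins, had 2.01, 1.93 and 2.04 in old and 1.69, 1.84 and 1.95 in young replicates. Young replicate 3 lay above old replicate 2, so the groups overlapped slightly, with a difference of 0.17 ± 0.10 (interval -0.07 to 0.41). For Atg4c (NM_175029) the values were 0.13, 0.18 and 0.07 in old cells and 0.21, 0.34 and 0.09 in young cells, overlapping, with a difference of -0.09 ± 0.10. Atg4a (NM_174875) was well above background on 0 of the 6 arrays and was not tested. Its measured values of -6.17, -5.18 and -5.13 in old cells and -6.76, -5.42 and -4.84 in young cells were not well above background and give only an upper bound.

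Within the Atg8 family, the proteins that coat the autophagosome and bind cargo receptors, the 2 LC3 genes were lower in all 3 old arrays and the 3 GABARAP genes overlapped. Map1lc3b (NM_026160), the usual marker protein of autophagosomes, had 3.96, 3.93 and 4.08 in old and 4.10, 4.25 and 4.37 in young replicates 1 to 3. The nearest arrays, old replicate 3 and young replicate 1, were 0.03 apart. Its difference was -0.25 ± 0.10 (interval -0.50 to -0.01, limma adjusted p = 0.169). Map1lc3a (NM_025735) had -0.83, -0.92 and -0.77 in old cells and -0.75, -0.50 and -0.56 in young cells, with 0.01 between the nearest arrays of the ages. The difference was -0.23 ± 0.10 (interval -0.48 to 0.01).

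Gabarap (NM_019749) had 5.26, 5.37 and 5.42 in old cells and 5.34, 5.33 and 5.48 in young cells, a difference of -0.04 ± 0.09. The ages were interleaved for this gene. Gabarapl1 (NM_020590) had 5.99, 6.07 and 5.90 in old and 5.90, 5.97 and 5.78 in young replicates, with 0.10 ± 0.09, and Gabarapl2 (NM_026693) had 4.25, 4.14 and 4.21 in old and 4.20, 4.32 and 4.47 in young replicates, with -0.13 ± 0.10. Gabarapl1 was the member of this family with a positive value, and that sign turned under quantile normalization and cyclic loess. Whether the LC3 genes differ from the GABARAP genes in their response to age was not tested.

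**Figure D2:**
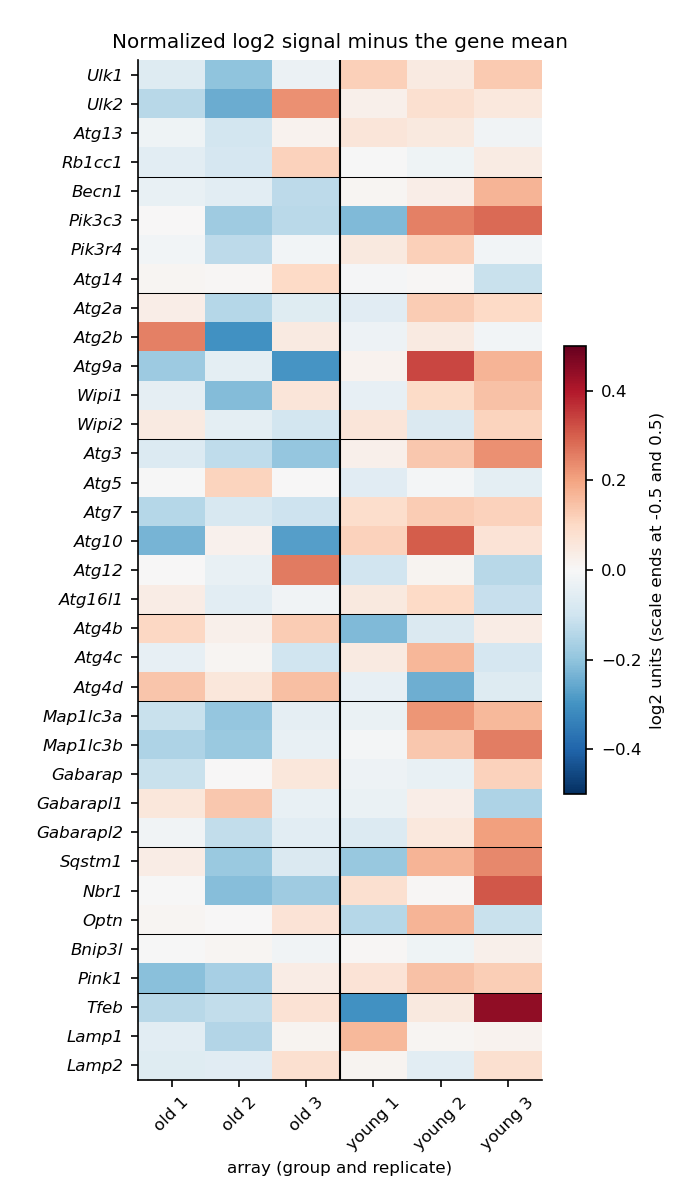
Normalized log2 signal of each tested member on each array, minus the mean of that gene over the 6 arrays (columns, old replicates 1 to 3 left of young replicates 1 to 3; rows, members by role; the colour scale ends at -0.5 and 0.5). Young replicate 3 is the highest of the 6 arrays in 14 members and old replicate 2 the lowest in 13.

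The cargo receptor Sqstm1 (NM_011018; p62), which links ubiquitin-marked cargo to LC3, had 1.84, 1.61 and 1.73 in old and 1.61, 1.97 and 2.04 in young replicates. The lowest and the highest array were both young, and the difference of -0.15 ± 0.14 had an interval of -0.48 to 0.19 (limma adjusted p = 0.532). Nbr1 (NM_008676), a related receptor, had -0.38, -0.59 and -0.56 in old cells and -0.29, -0.37 and -0.07 in young cells. The nearest arrays of the ages were 0.01 apart, without overlap, and it differed by -0.26 ± 0.12 (interval -0.54 to 0.02). Optn, the receptor optineurin, differed by 0.05 with the main values and by -0.01 with the authors' deposited table.

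The mitophagy receptor Bnip3l (NM_009761; NIX), which removes mitochondria from reticulocytes, was the most even of all members with the probe used. Its normalized log2 signal was 4.65, 4.66 and 4.63 in old cells and 4.66, 4.63 and 4.68 in young cells. All 6 arrays fell within 0.05 of each other. The difference was -0.01 ± 0.07 (interval -0.18 to 0.17, limma adjusted p = 0.958), and its 4 probes gave differences from -0.12 to -0.01. A further Bnip3l probe of close mean signal (4.61) was less even and ran from 4.47 to 4.74 over the 6 arrays. Markers of red cell precursors were bright in these samples, with 15 of 16 erythroid genes on the array well above background on all 6 arrays, 0 of 16 tested past the threshold and a median difference of -0.02. Their summed linear signal, each array's 75th percentile being 1, was 1483 to 1630 in old and 1329 to 1841 in young samples. Fewer cells of a type and less RNA per cell cannot be told apart in such bulk samples.

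Pink1 (NM_026880), the kinase that flags damaged mitochondria, had 2.74, 2.79 and 2.99 in old replicates and 3.02, 3.1 and 3.07 in young replicates. The groups did not overlap, with old replicate 3 only 0.03 below young replicate 1. The difference was -0.23 ± 0.10 (interval -0.46 to 0.01, limma adjusted p = 0.190).

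At the lysosomal end, Tfeb (NM_001161722), a transcription factor of lysosome and autophagy genes, was the dimmest tested member and the one with the widest spread. It had -2.02, -2.0 and -1.81 in old cells and -2.18, -1.83 and -1.44 in young cells. The lowest and the highest of the 6 arrays were both young. The difference was -0.13 ± 0.20 (interval -0.60 to 0.35, limma adjusted p = 0.718), and it was positive with normexp (0.04) and without young replicate 3 (0.06). The lysosomal membrane proteins Lamp1 and Lamp2 differed by -0.13 and -0.03.

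TFEB is known to bind DNA at the E-box letters CACGTG, which read the same on both strands, with a longer preferred form TCACGTGA that contains them. The RefSeq promoter table (GRCm38.p6) held a window for 29 of the 36 members, and the 250 bases before the start were searched. CACGTG stood in 4 members, in 11.8% of the 34 member windows, and in 6.02% of all 32851 windows in the table. TCACGTGA stood in 1 member, Atg3, and in 0.785% of all windows. These stretches are shown because they hold every match among the members, with the motif in capitals, 5′ to 3′ on the plus strand. Atg7 is at chr6:114670952-114670981, Lamp1 at chr8:13159088-13159160, Atg5 at chr10:44268313-44268338 and Atg3 at chr16:45158723-45158775.
Atg7: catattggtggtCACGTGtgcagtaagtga
Lamp1: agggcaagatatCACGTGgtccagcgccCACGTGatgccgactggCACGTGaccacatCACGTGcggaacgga
Atg5: cggagcgcttgcCACGTGgtcttggt
Atg3: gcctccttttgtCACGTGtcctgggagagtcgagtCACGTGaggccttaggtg

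Lamp1 held 4 copies, between 61 and 15 bases before the start, Atg3 held 2, and Atg7 and Atg5 held 1 each. The 4 genes with the letters had differences from -0.26 (Atg3) to 0.08 (Atg5) with a median of -0.17. The 24 other tested members with a window ran from -0.35 to 0.23 with a median of -0.10. A match describes the letters in a window and does not show binding.

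For 12 members the array had more than 1 probe, 14 further probes in all, and with every probe tested as its own row 0 of 49 member probes passed. In 8 of the 12 the probes gave differences of 1 sign, and in Rb1cc1, Wipi2, Atg10 and Lamp2 they gave opposite signs. The smallest adjusted p of any member probe, 0.0586 by limma, belonged to a Lamp2 probe for another transcript (NM_001017959). This probe had normalized log2 signals of 1.08, 1.03 and 1.21 in old cells, against 0.68, 0.74 and 0.78 in young cells, and differed by 0.38 ± 0.09. The Lamp2 probe used above (NM_010685) differed by -0.03 ± 0.09. The further probe of Atg12 differed by 0.50 ± 0.12 (limma adjusted p = 0.0627), that of Rb1cc1 by 0.56 ± 0.15 (limma adjusted p = 0.0737) and that of Atg10 by 0.24 ± 0.13 (limma adjusted p = 0.284).

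A ratio of 2 probes of the same gene on an array does not depend on the array's scale factor. Taking the further probe over the probe with the highest mean, the groups' ratios were separated in 4 of the 14 comparisons, all 4 higher in old cells. Over all 8006 such comparisons on the array the ratios were separated in 29.7%, with old higher in 14% and old lower in 15.7%, so the share among the members was near that of all genes. These were the log2 ratios of Rb1cc1 (changed by 0.58), Atg10 (0.56), Lamp2 (0.40) and Atg12 (0.35). Each had a two-sided exact permutation p = 0.1, the smallest that 3 against 3 arrays can give, and 0.35 after adjustment over the 14, so this design cannot pass a threshold of 0.05. The 4 genes are reported because of these values. The probe positions within the transcripts were not used here.

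**Figure D3:**
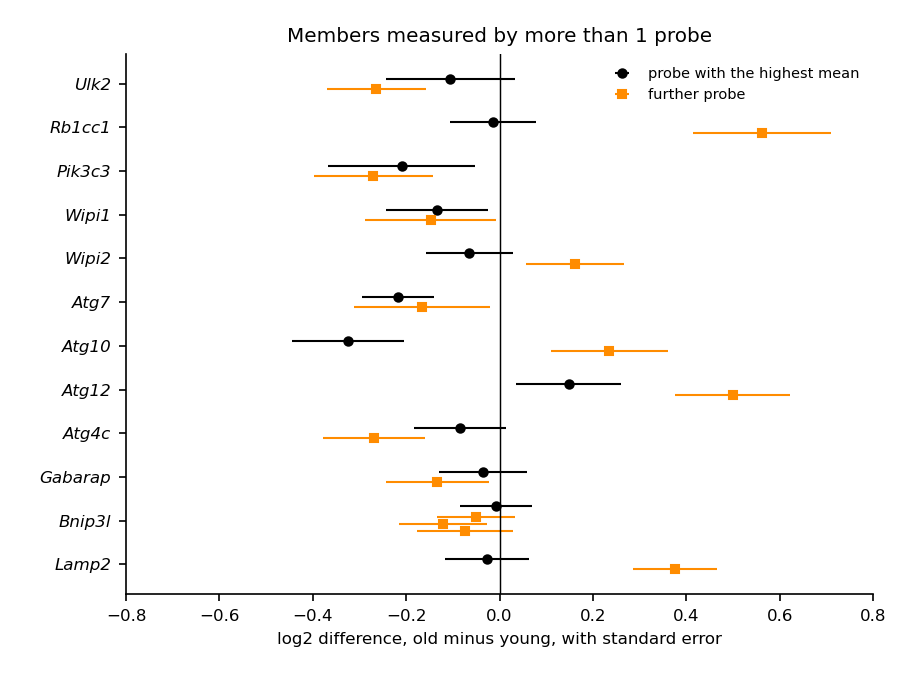
Difference between old and young cells for every probe of the 12 members with more than 1 probe (log2, old minus young; bars are the SE, n = 3 and 3). The further probes of Rb1cc1, Wipi2, Atg10 and Lamp2 lie right of 0 while the probes with the highest mean lie left of it.

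Around the members, 118 other genes of the pathway were followed in 5 lists, of which 116 were tested. None was higher and 4 were lower in old cells, against 4.04% of all genes that were lower, and the median difference was -0.03. Of 21 other core autophagy genes 2 fell, of 14 fusion genes 1 fell, and of 31 genes of the mTORC1 and AMPK nutrient sensors 1 fell. Of 18 other mitophagy genes and of 32 lysosome genes none passed. The 4 that fell encode a homologue of Atg16l1, a receptor, a tether and a sestrin.

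Atg16l2 (NM_001111111), the homologue of Atg16l1, had normalized log2 signals of -0.39, -0.86 and -1.05 in old cells and 0.18, 0.25 and 0.83 in young cells. It fell by 1.19 ± 0.24 log2 units, with an adjusted p of 0.0395 by limma, and its further probe fell by 1.32 ± 0.29 (limma adjusted p = 0.0483). Atg16l1 itself had 1.15, 1.06 and 1.1 in old cells and 1.16, 1.22 and 1.0 in young cells, overlapping. The log2 ratio of Atg16l2 to Atg16l1 was lower by 1.17 in old cells (change of -1.17), with every old array below every young one (two-sided exact permutation p = 0.1, the smallest possible; a pair chosen after the values were seen).

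Tecpr1 (NM_027410), which takes part in joining autophagosomes to lysosomes, had -0.26, -0.30 and -0.74 in old cells and 0.58, 0.50 and 0.75 in young cells, with no overlap. It fell by 1.04 ± 0.15 (limma adjusted p = 0.0259). Ccpg1 (NM_001114328), a receptor for autophagy of the endoplasmic reticulum, had 0.52, 0.35 and 0.56 in old cells and 0.95, 0.98 and 1.24 in young cells and fell by 0.58 ± 0.12 (limma adjusted p = 0.0386). Its further probe differed by -0.80 ± 0.18 with an adjusted p of 0.0525. Sesn3 (NM_030261), a sestrin that restrains mTORC1, had -2.80, -3.21 and -2.65 in old cells and -2.05, -2.01 and -1.81 in young cells and fell by 0.93 ± 0.16 (limma adjusted p = 0.0312).

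These calls depended on most of the arrays. With 1 array left out, the adjusted p lay between 0.0442 and 0.115 for Atg16l2, 0.0649 and 0.112 for Ccpg1, 0.0405 and 0.0741 for Tecpr1 and 0.0568 and 0.0909 for Sesn3. Without old replicate 1 the calls of Atg16l2 and Tecpr1 remained, and with any other array left out none of the 4 passed. Without young replicate 3, Atg16l2 was at -0.99, Tecpr1 at -0.97, Ccpg1 at -0.49 and Sesn3 at -0.86. With normexp Sesn3 was at -0.31 (limma adjusted p = 0.0836). With dim probes kept in the test, all 4 missed the threshold at a limma adjusted p of 0.0617.

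**Figure D4:**
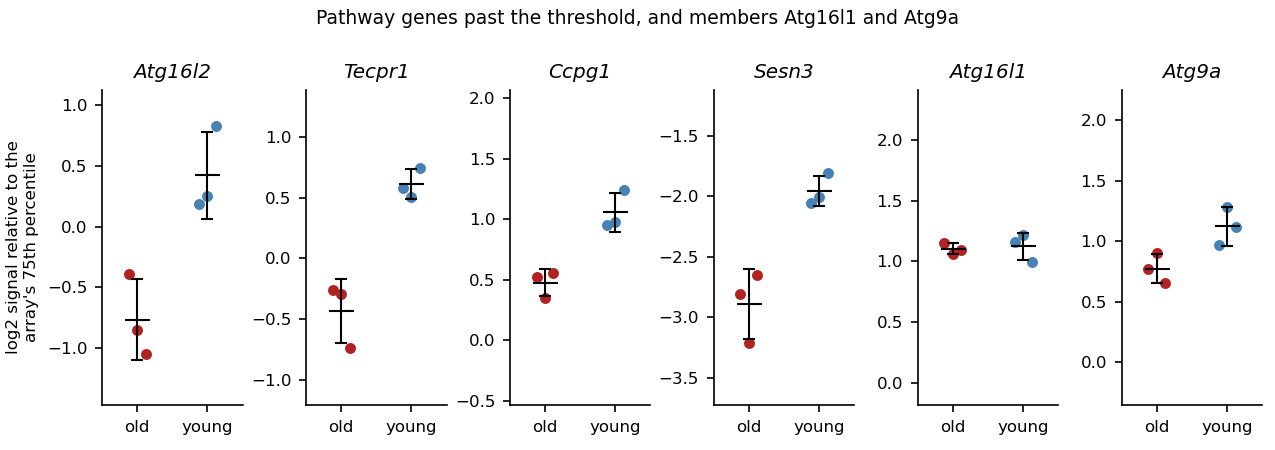
Normalized log2 signal of the 4 pathway genes that fell and of the members Atg16l1 and Atg9a (points are arrays, lines the mean and bars the SD, n = 3 and 3; each panel spans the same number of log2 units). The ages are apart in all panels but that of Atg16l1.

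Of the 18 mitophagy genes outside the members, 15 had a positive and 3 a negative difference, with a median of 0.10. Over all genes tested 39.8% were negative and the median was 0.07. Cyclic loess left 9 of the 18 positive and 9 negative and a median of 0.02, against -0.005 over all genes. Fkbp8, a mitophagy receptor of the outer membrane, differed by 0.22 ± 0.08 (limma adjusted p = 0.133).

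Among the lysosome genes, with a median of -0.12, the membrane protein Cd63 (NM_001042580) had 2.85, 2.90 and 2.55 in old cells and 3.33, 3.57 and 4.10 in young cells, a difference of -0.90 ± 0.22 (limma adjusted p = 0.0586). Young replicate 3 was the highest. Laptm4a, a lysosomal membrane protein, differed by -0.26 ± 0.08 (limma adjusted p = 0.0908).

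Markers of leukocytes, neutrophils, monocytes and B cells had larger median differences between the ages than the members did. So did, with the main settings, the T cell and NK cell, osteoblast, adipocyte, mesenchymal stroma and endothelial lists, whereas the erythroid markers given above did not. The summed linear signal of 12 leukocyte markers was 87.8 to 98.7 in old and 141 to 241 in young samples, with 6 of 12 lower in old cells and a median difference of -1.14. For 12 neutrophil markers the sums were 1355 to 1686 in old and 2011 to 3037 in young samples (2 of 12 lower, median -1.06). For B cell markers they were 8.08 to 16.4 in old and 40.1 to 77.1 in young samples (6 of 10 tested lower, median -2.34). For monocyte and macrophage markers they were 8.40 to 9.37 in old and 15.1 to 27.0 in young samples (7 of 9 tested lower, median -2.10). For the T cell and NK cell markers, 2 of 9 tested were higher and 2 lower in old cells (median -0.80). The sums of the 10 on the array were 21.6 to 25.2 in old and 18.3 to 24.2 in young samples. Of the osteoblast markers 1 of 6 tested was higher and 3 were lower (median -1.41). The sums of the 9 osteoblast markers on the array were 0.77 to 0.93 in old and 2.21 to 12.8 in young samples. Of the adipocyte markers 0 of 5 were higher and 2 lower (median -1.12). Of the endothelial markers 1 of 5 was higher and 0 lower (median 0.18). With the mean of all probes the endothelial median was -0.05 and that of the members -0.11. The counts of calls in the leukocyte, neutrophil, monocyte and B cell lists depended on the arrays and settings. All 4 lists had 0 calls without young replicate 2, without old replicate 2, without old replicate 3, with dim probes kept in the test and with the replicate block. With normexp 9 of 12 leukocyte and 9 of 12 neutrophil markers were lower, and the median was -0.93 for the monocyte and -1.58 for the B cell list. The osteoblast and adipocyte medians were -0.03 and -0.03 with normexp, and the T cell and NK cell median was -0.31. The summed signal of the autophagy and mitophagy genes was 386 to 402 in old and 404 to 410 in young samples. The part of these cells in the members' values and in the 4 calls was not tested.

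Markers of the labelled cell type were sparse. Of 18 mesenchymal stroma markers 8 were well above background on all 6 arrays, and 6 were so on none (Pdgfra, Pdgfrb, Prrx1, Twist1, Foxc1 and Grem1). Of the 11 tested, 1 was higher and 3 were lower in old cells. The difference was negative in 8 and positive in 3 of the 11, with a median of -1.26 (-0.80 with normexp). The summed signal of all 18, in contrast, was 36.2 to 43.1 in old and 26.2 to 39.5 in young samples. The values above are therefore those of the sorted samples as labelled, and were not assigned to stromal cells. The arrays of the old samples were in row 2 of the single slide and those of the young samples in row 1, and an effect of row and one of age cannot be told apart. The old arrays were also dimmer, with a 75th percentile of the processed signal of 206 to 285 in old and 277 to 349 in young samples, and 50.9% to 53.4% of probes well above background in old against 55.2% to 60.0% in young samples.

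**Figure D5:**
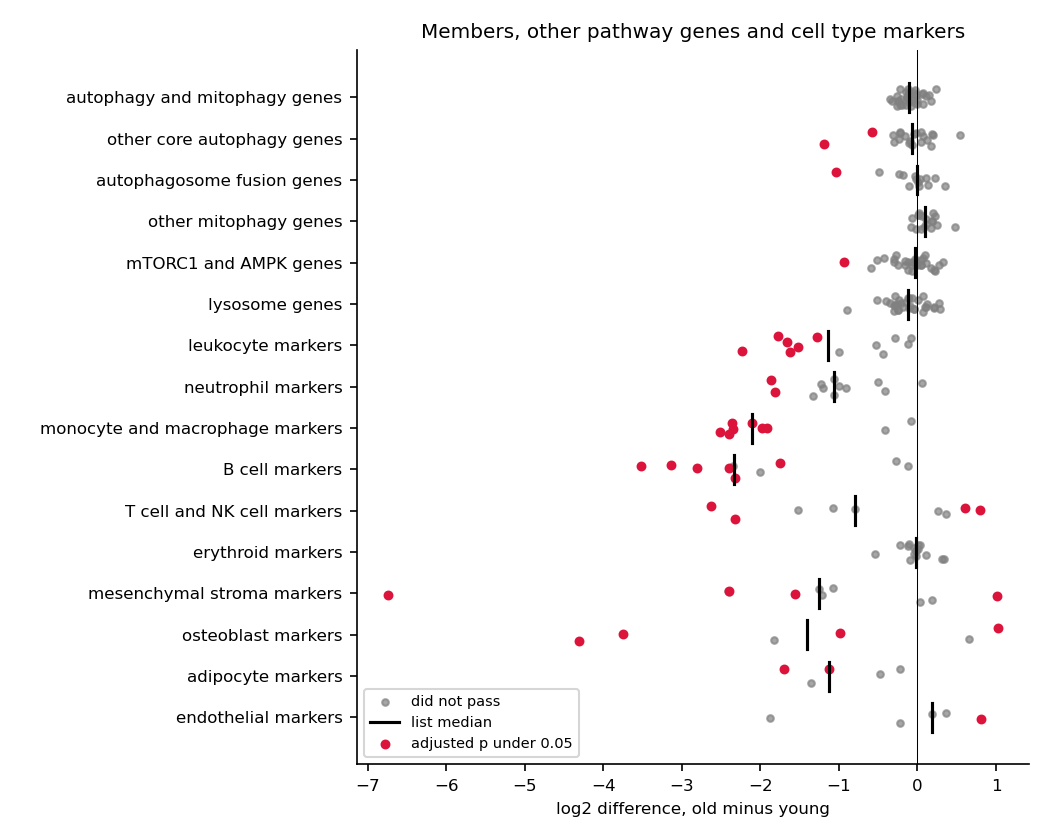
Difference between old and young cells (log2, old minus young) for the members, 5 lists of other pathway genes and 10 lists of cell type markers (points are tested genes, red at a limma adjusted p under 0.05; bars are list medians). The members lie close to 0, while most tested monocyte and B cell markers lie below -1.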

How the data were processed

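The authors deposited, for each array, the spot intensities written by Agilent Feature Extraction. The processed intensity is background-subtracted within the array and not scaled between arrays, per the file headers, which name version 10.7.3.1 and a probe design annotated on mm9, while the submitters' processing notes name 10.5.1.1. A log2 table from the authors covers 52095 of the 55681 probes. Set against the scanner values of the same array, its columns gave r = 0.9986 to 0.9995 across probes. The scaling and centring of this log2 table are not given in the sources used here. Its column medians run from 4.87 to 4.95.

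Control spots and spots flagged as outliers were left out, log2 intensities of repeated spots were averaged, and each array's 75th percentile was subtracted. Symbols came from RefSeq accessions (GRCm38.p6), which named 26413 of the 55681 probes (47.4%). Probes without a symbol kept the name given on the array and were counted as genes. Of the 23266 genes tested, 13548 had a symbol. A gene was the probe with the highest mean over the 6 arrays, and it was tested where that probe cleared background on 3 or more of the 6 arrays, irrespective of age. The ages were compared by lmFit and eBayes of limma 3.58.1 (R 4.3.3) with no covariates, with Benjamini-Hochberg adjustment over 23266 genes and a threshold of 0.05. The steps were tested on simulated data. Group and replicate came from the sample titles. The precision is limited by the number of arrays, 3 a group.

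The members, the other gene lists and the alternatives were chosen with earlier results of these data known. Values on each array are given for the Ulk kinases, the Atg8 family, the Atg4 proteases, the mitophagy members, Tfeb, Sqstm1 and the 6 other members with the largest difference, and the other members by their difference. Of the pathway lists, the genes past the threshold are named, or the 2 with the smallest p where none passed. A gene that this rule takes is not reported here. Alternatives were normexp with an offset of 50 on the median signals (chosen after seeing that the files hold no mean signals), other scalings, the deposited values, other filters, the mean of all probes, array weights, the replicate number as a block and leaving out each array. Cyclic loess filled a spot left out on an array with its probe's mean, and fits without 1 array dropped genes that then had a missing value.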

Additional observations from a re-analysis of the deposited data

How the results depend on the processing

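The count of members past the threshold was 0 higher and 0 lower in old cells under all 16 alternatives, and the smallest adjusted p of any member was 0.0565 (limma, Map1lc3b with normexp). The count over all genes moved more. It was 1864 with the main settings, 3366 with normexp (2323 higher in old cells), 0 without the filter on dim probes (11662 at an unadjusted p under 0.05) and 1 to 1154 with 1 array left out, the ends being those without old replicate 2 and old replicate 1. It was 63 without young replicate 2, 321 without young replicate 3, 766 without young replicate 1 and 5 without old replicate 3. With the replicate number as a block (a replicate block fit), 0 genes passed (5554 unadjusted). Same-numbered deviations correlated at -0.03, 0.02 and -0.01, and those of different numbers at -0.11 to 0.11. The sample titles give only the number, and these values cannot decide whether same-numbered samples belong together. Of the calls, 925 of 1864 were higher in old cells, against 597 of 1531 with the deposited values and 647 of 1543 with cyclic loess. The members' median was -0.16 under cyclic loess and -0.16 in the deposited table, and the median of all genes was 0.07 with the main settings, -0.005 under cyclic loess and -0.008 in the deposited table. The pathway lists had 4 lower genes, 10 lower and 2 higher with normexp, 6 lower among genes above background on all arrays, 0 without the filter and with the block, and 0 to 2 with 1 array left out.

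The sign of the difference was kept in all 16 alternatives by 25 members (20 negative, 5 positive) and turned in 10, all without a call. It turned with normexp for Atg2b (0.0063) and Tfeb (0.039), with quantile normalization (-0.0028) and cyclic loess (-0.010) for Gabarapl1, with the deposited values for Optn (-0.011), with array weights for Bnip3l (0.00036) and with the mean of all probes for Rb1cc1 (0.27), Wipi2 (0.049) and Lamp2 (0.17). With 1 array left out the values ran from -0.075 to 0.025 for Rb1cc1, -0.13 to 0.15 for Atg2b, -0.084 to 0.024 for Atg16l1, -0.072 to 0.013 for Gabarap, -0.0033 to 0.15 for Optn, -0.020 to 0.0035 for Bnip3l, -0.31 to 0.065 for Tfeb and -0.073 to 0.0066 for Lamp2. The causes were not tested. Atg4a was not tested because its signal was not well above background, and Tfeb was the dimmest tested member.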
